A study of Homo sapiens with 15 samples.

Results

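The lowest dose of fine particulate matter in the series was set against its vehicle control, gene by gene. H9, an established line of human embryonic stem cells with a wild-type genotype, was differentiated toward bone for 7 days. The groups were FPM_IC25, cultures given fine particulate matter (FPM) at 0.00062 µg/mL, and UNT, cultures given the DMSO vehicle at 0.1%. Exposure ran from day 0 to day 7. All cultures first differentiated without direction in serum medium and had vitamin D3, β-glycerophosphate and ascorbic acid added from day 5. Each group had 3 libraries of polyadenylated RNA, made with a directional kit, and all came from 1 cell line. FPM_IC50 (FPM at 1.4 µg/mL) and SRM_IC25 (a NIST standard reference material at 0.003 µg/mL) served as further comparisons. The genes described are those with at least 1 CPM (counts scaled to a common library size) in each of the 3 UNT libraries, which 14558 of the 60675 genes in the table met. A gene that was seen at FPM_IC25 and was near 0 in UNT is therefore outside this set, so the count of genes higher at FPM_IC25 is limited by the choice.

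Fine particles carry polycyclic aromatic hydrocarbons, which bind the receptor AHR and switch on CYP1A1, and reactive compounds, which act through NFE2L2 on antioxidant genes. Embryonic stem cells that leave the pluripotent state in serum give mixtures of lineages. Forebrain and eye field progenitors use RAX, SIX3 and PAX6, while mesenchyme and neural crest, from which much of the skeleton forms, use PRRX1, TWIST1 and TFAP2B. Bone-forming cells then need RUNX2 and SP7, and later make the mineral-binding proteins IBSP and BGLAP.

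Total counts were 9.34, 21.04 and 58.2 M (M, mega) at FPM_IC25 and 20.1, 17.7 and 17.3 M in UNT. The FPM_IC25 libraries stood apart from UNT in genes annotated as antisense, which took 1.07% ± 0.173 of counts at FPM_IC25 and 0.282% ± 0.00768 in UNT (SD, n = 3). An exact two-sided permutation test of these groups gave p = 0.1, the smallest that 3 against 3 allows. The excess was not particular to FPM_IC25. The share was 1.034 to 1.499% over the FPM_IC50 libraries and 0.298 to 0.303% over those of SRM_IC25. Reads on the strand opposite a gene touch many results below, and each gene was classed by what GENCODE places opposite it. By these markers the cultures were early and mixed. IBSP was at most 0.0610 CPM and BGLAP at most 0.427 CPM in any of the 6 libraries, SP7 was at most 1.02 CPM, and TYR, the pigment enzyme, was at 0 in all 6, while LIN28A, KRT19 and HAND1 were each above 180 CPM throughout. The endothelial and blood genes PECAM1, PTPRC and TAL1 and the endoderm genes SOX17 and FOXA2 stayed under 0.3 CPM, but the endothelial cadherin CDH5 was at 5.06 to 9.26 CPM and the endoderm gene AFP at 0.995 to 2.195 CPM over the 6 libraries.

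Of the 14558 genes, 1071 (7.36%) were called, meaning an adjusted p under 0.05 in edgeR's quasi-likelihood test with Benjamini-Hochberg adjustment. The adjustment ran over all 19012 tested genes, so each adjusted p also depends on genes outside the 14558. 414 (2.84%) were higher at FPM_IC25 and 657 (4.51%) lower. When the scaling factors came only from genes that had no gene on the other strand within 5 kb, the split turned to 557 higher and 379 lower, so the balance of the 2 directions depends on the scaling. Over all 19012 tested genes, which include those scarce in UNT, 2693 (14.2%) were called, 2025 higher (10.7%) and 668 lower (3.51%). Counting only whether the libraries of the 2 groups overlapped, 1491 genes lay wholly higher at FPM_IC25 (10.2%) and 2412 wholly lower (16.6%). The changes were mostly small: 141 of the higher and 31 of the lower genes differed by more than 2-fold. Higher genes had a median GC content of 53.1% and lower genes 41.3%, against 48.5% for genes not called. In UNT the higher genes were also scarcer, with a median of 8.28 CPM, against 54.9 CPM for the lower genes. Without UNT replicate 2 the calls numbered 476, without FPM_IC25 replicate 2 581, without UNT replicate 3 628 and without FPM_IC25 replicate 3 684. 384 of the 1071 genes kept the call whichever of the 6 libraries was left out. With a correction for GC content 28 of 84 named genes lost the call, among them NHLH1, ALDH1A1, POU5F1, ENG, PDGFRB, TWIST1, AHR, NFE2L2, HSP90B1, PSAT1, PMAIP1, CCNB2, CDKN1B, TOP2A, SC5D, ETV1, FGF13 and ATG5, which are described below.

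Genes called higher and genes called lower differed in what lay on their opposite strand. Among the 5797 genes with an exon overlapped by an exon of an opposite-strand gene, 332 were higher and 221 lower. Among the 8711 with no such overlap, 79 (0.907%) were higher and 435 (4.99%) lower. Of 331 higher genes with an overlapping partner measured, 288 (87.0%) had a partner more abundant than themselves in UNT, against 31 of 216 lower genes (14.4%) and 1345 of 5171 genes not called (26.0%). BEST1, a chloride channel gene of the eye, had 445, 310.4 and 344 CPM at FPM_IC25 and 1.79, 1.12 and 2.32 CPM in UNT. Its partner FTH1, the ferritin heavy chain, averaged 1316 CPM at FPM_IC25 and 1663 CPM in UNT. ATG10, an autophagy gene, averaged 321 CPM at FPM_IC25 and 14.3 CPM in UNT, opposite the ribosomal protein gene RPS23 at 1075 CPM at FPM_IC25 and 1349 CPM in UNT. SNX22 averaged 79.6 CPM at FPM_IC25 and 2.46 CPM in UNT opposite PPIB, and SH3D19 462 CPM at FPM_IC25 and 89.4 CPM in UNT opposite RPS3A. TGFB1, the growth factor, was called higher (log2 0.68, SE 0.09), and so was ATG7 (0.64, SE 0.13); their partners HNRNPUL1 and VGLL4 were more abundant in UNT than they were. The part of opposite-strand reads in these calls was not tested. A fit that used only genes with no opposite-strand exon overlap, named below the strand-restricted fit, called 26 higher (0.298%) and 43 lower (0.494%) of the 8711, and all 69 were also called in the whole table. Of 84 called genes that the naming rule picked, 17 held there. These were HERC3, MT-ND6, ERVV-2, COL6A3, GPR78, PRRX1, SNAI1 and TFAP2B, all higher, and DCT, CPLX4, SIX3, ANKRD18B, SOX2, LIN28A, MT-ATP8, CYP26A1 and DLK1, all lower. PAX6, LHX2, TYRP1, PMEL, POU5F1, TDGF1, ENG, TWIST1, GREM1, FGF13, H19, AHR, NFE2L2, CYP1B1, HSP90AA1, HSPD1, HSP90B1 and TNFAIP3, described below, have an opposite-strand exon overlap and were not in that fit.

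**Figure D1:**
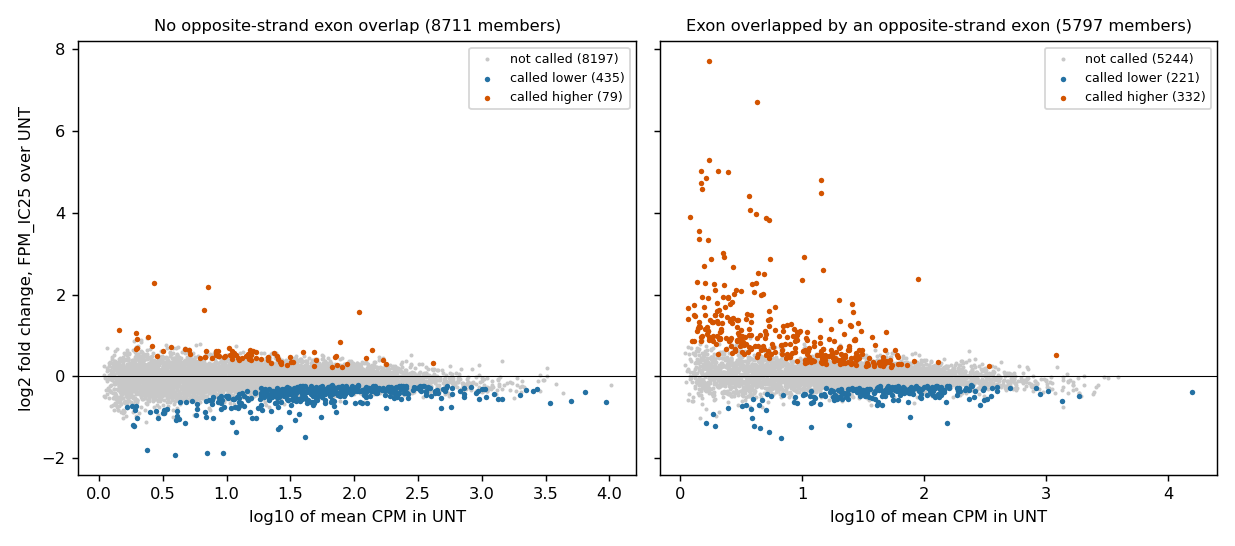
Log2 fold change of FPM_IC25 over UNT (vertical axis) against the log10 of the mean CPM in UNT (horizontal axis) for each gene, with genes called higher in orange, called lower in blue and not called in grey. The left panel holds 8711 genes with no opposite-strand exon overlap, where 79 were called higher and 435 lower, and the right panel 5797 genes with such an overlap, where 332 were called higher and 221 lower and the points above 3 all lie.

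Genes of the eye field and anterior neural plate were lower at FPM_IC25. Of 19 measured members of that list, 9 fell and none rose, with a median log2 fold change of -0.49, against -0.04 over all 14558 genes. Over all of these, 4.51% were called lower. RAX, the homeodomain factor that starts the eye field (ENSG00000134438, GRCh38 chromosome 18), had 19.4, 5.94 and 18.7 CPM at FPM_IC25 and 33.0, 41.6 and 47.7 CPM in UNT. The groups did not overlap, and FPM_IC25 replicate 2 was lowest. Its log2 fold change was -1.48 (SE 0.35, edgeR adjusted p = 0.00672). SIX3, which represses Wnt signals in the forebrain (chromosome 2), had 13.9, 6.08 and 13.5 CPM at FPM_IC25 and 25.5, 24.4 and 28.8 CPM in UNT (log2 -1.24, SE 0.23, edgeR adjusted p = 0.00100). It was also called in the strand-restricted fit (adjusted p = 0.0275), while RAX was at 0.0664 there.

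PAX6, which is needed for eye and forebrain (chromosome 11, 31784779 to 31818062), had 86.5, 42.3 and 81.3 CPM at FPM_IC25 and 157, 140.4 and 163 CPM in UNT. LHX2, a factor of optic cup and cortex, had 13.5, 6.13 and 12.3 CPM at FPM_IC25 and 20.6, 23.0 and 28.9 CPM in UNT. The groups were apart in both genes. RAX, SIX3, PAX6 and LHX2 kept their calls without FPM_IC25 replicate 2, where 8 of the 9 genes passed. SIX6, a retinal progenitor factor, fell by 1.36 on the log2 scale, a call lost without UNT replicate 3 (adjusted p = 0.0661). SOX2, also in this list, is given with the pluripotency genes. OTX2 fell by 0.46 and ZIC2 by 0.38; the call of OTX2 was lost without either FPM_IC25 replicate 2 or 3 or UNT replicate 1 or 2 (adjusted p up to 0.161) and that of ZIC2 without FPM_IC25 replicate 3 or UNT replicate 1 (up to 0.0828). Values for FEZF1 (-0.57), FEZF2 (-0.59) and EMX2 (-0.49) did not pass the test, and NR2F1 (0.25) and ZIC1 (0.17) were on the other side of 0. Summed over the 20 listed genes, the level was 899.9 to 1029 CPM at FPM_IC25 and 1205 to 1343 CPM in UNT. In RNA from whole cultures, fewer cells of a type and less RNA per cell cannot be told apart.

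Pigment cell genes were also lower. Of 4 measured members of that list, 3 fell, beside 4.51% over all genes. MITF, the master factor of pigment cells, had 5.66, 5.29 and 6.08 CPM at FPM_IC25 and 9.30, 8.40 and 9.45 CPM in UNT (log2 -0.66, SE 0.14, edgeR adjusted p = 0.00285). DCT, an enzyme of melanin synthesis, had 0.720, 0.418 and 1.51 CPM at FPM_IC25 and 3.68, 4.23 and 3.84 CPM in UNT, the largest fall on the log2 scale among genes with no opposite-strand exon overlap (-1.93, SE 0.42, edgeR adjusted p = 0.00382). Its FPM_IC25 values are close to the counting floor of 0.321 CPM in the shallowest library. TYRP1, a second melanin enzyme, averaged 1.57 CPM at FPM_IC25 and 4.02 CPM in UNT (log2 -1.21), with the call lost without FPM_IC25 replicate 2 or UNT replicate 3 (adjusted p up to 0.0789). PMEL, the pigment granule protein, was at -0.33 and did not pass (adjusted p = 0.0657).

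The promoter of TYRP1 is shown because MITF is known to act on it through the E-box CATGTG. It is 300 bases of RefSeq sequence of GRCh38.p14 around the gene's start in RefSeq, on the plus strand at chr9:12693135-12693434, with CATGTG or its reverse complement CACATG in capitals. The GENCODE gene starts further upstream, at 12685439.
TYRP1: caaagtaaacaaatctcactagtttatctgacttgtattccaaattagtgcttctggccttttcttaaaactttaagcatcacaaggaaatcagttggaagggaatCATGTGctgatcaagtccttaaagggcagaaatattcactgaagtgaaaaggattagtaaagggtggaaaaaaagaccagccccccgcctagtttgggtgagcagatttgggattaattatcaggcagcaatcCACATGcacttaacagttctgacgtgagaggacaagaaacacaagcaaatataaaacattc
The window holds 2 matches. Searched on both strands, the motif is in 11.2% of all 27305 promoters in the table, 6.35% of the 11104 that matched a gene of this set, and 7.88% of 330 matched lower genes with no opposite-strand exon overlap. A match is a description of letters and not a site.

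Members of the pluripotency list were also lower, 7 of 18 measured beside 4.51% over all genes, with none higher and a median of -0.29. Without FPM_IC25 replicate 3, 3 of them passed, and 4 without FPM_IC25 replicate 1 or 2 or UNT replicate 2. LIN28A, an RNA-binding protein that blocks let-7, had 664, 638 and 635 CPM at FPM_IC25 and 932, 980.1 and 947 CPM in UNT (log2 -0.56, SE 0.10, edgeR adjusted p = 0.000745). SOX2, shared by pluripotent and neural cells, had 84.4, 76.0 and 82.2 CPM at FPM_IC25 and 127, 131 and 122 CPM in UNT (log2 -0.65, SE 0.11, edgeR adjusted p = 0.000331). Both groups were tight and apart in these 2 genes, and both calls held in the strand-restricted fit (adjusted p = 0.0299 for LIN28A and 0.0176 for SOX2). POU5F1, the core factor OCT4, had 136, 164 and 174 CPM at FPM_IC25 and 189, 252 and 255 CPM in UNT (log2 -0.55, edgeR adjusted p = 0.0420), a call that held only when UNT replicate 1 was the library left out (up to 0.183). TDGF1, a Nodal co-receptor, fell by 0.59, and lost its call without FPM_IC25 replicate 1 or 3 or UNT replicate 2 (up to 0.0947). NANOG averaged 4.15 ± 0.470 CPM at FPM_IC25 and 5.95 ± 1.06 CPM in UNT and did not pass (log2 -0.50, adjusted p = 0.0707). DNMT3B (-0.08) and LIN28B (0.01) were near 0. USP44, a deubiquitinase of stem cells that was picked from the strand-restricted calls after its values were seen, fell by 0.64 and kept its call in all 6 leave-one-out fits.

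**Figure D2:**
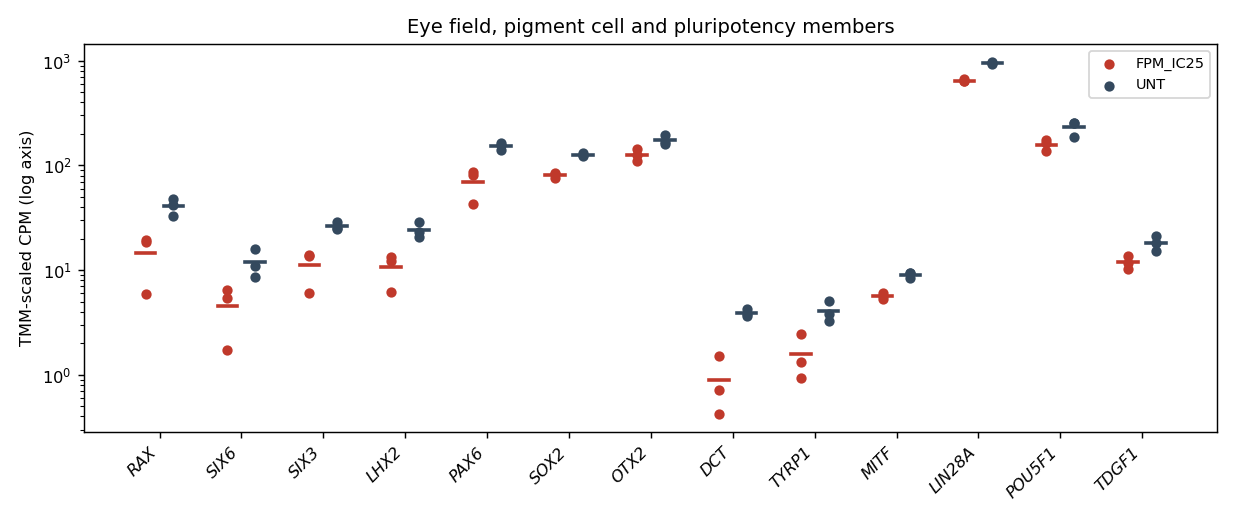
TMM-scaled CPM on a log axis for 13 genes of the eye field, pigment cell and pluripotency lists, with FPM_IC25 in red left of UNT in dark blue. Points are libraries and bars are means of 3; the lowest FPM_IC25 point of RAX, SIX3, SIX6, LHX2 and PAX6 is replicate 2 in each case.

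Some mesenchyme genes were higher. Of 20 measured members, 6 rose, beside 2.84% over all genes, and none fell, although the list's median was only 0.08. PRRX1, a homeodomain factor of limb and craniofacial mesenchyme (ENSG00000116132, chromosome 1), had 12.97, 20.2 and 16.6 CPM at FPM_IC25 and 9.75, 10.99 and 10.6 CPM in UNT (log2 0.68, SE 0.15, edgeR adjusted p = 0.00456). SNAI1, which represses E-cadherin in epithelial-to-mesenchymal transition, had 13.1, 13.9 and 12.4 CPM at FPM_IC25 and 9.30, 8.11 and 8.29 CPM in UNT (log2 0.61, SE 0.14, edgeR adjusted p = 0.00671). The groups did not overlap in either, and both held in the strand-restricted fit (adjusted p = 0.0314 for PRRX1 and 0.0368 for SNAI1). The growth factor receptors PDGFRB (0.48) and PDGFRA (0.41), the co-receptor ENG (0.61) and TWIST1 (0.36) also rose. Each of these 4 calls was lost without FPM_IC25 replicate 2 and without UNT replicate 2, and some also without other libraries, with adjusted p up to 0.217. The list thus kept 2 calls without either of those libraries. VIM (-0.10), ZEB1 (-0.07) and ACTA2 (0.01) were near 0. CDH2, the N-cadherin of neural and mesenchymal cells, was at -0.43 and did not pass.

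In the collagen and matrix list 1 of 35 genes rose, beside 2.84% over all genes, and none fell. Of the 35 fold changes 31 were above 0, with a median of 0.19, against a median of -0.04 over all 14558 genes. Genes of a list are not independent, and the direction of small changes depends on the scaling. COL6A3, a chain of microfibrillar collagen VI, had 128, 155 and 128 CPM at FPM_IC25 and 85.6, 78.7 and 66.7 CPM in UNT (log2 0.83, SE 0.20, edgeR adjusted p = 0.00811, and 0.0470 in the strand-restricted fit). HSPG2 (0.61), COL5A1 (0.52) and COL12A1 (0.45) were the next in size and did not pass. The list's summed level was 7064 to 8087 CPM at FPM_IC25 and 5728 to 7170 CPM in UNT, so the groups overlapped. Among the strand-restricted calls, and chosen after their values were seen, COL25A1 (0.62), COL23A1 (0.54) and the metalloproteases ADAM33 (0.59) and ADAMTS10 (0.57) were higher.

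Of the neural crest list 2 of 20 rose, beside 2.84% over all genes. TFAP2B, a crest factor, had 97.4, 116 and 89.96 CPM at FPM_IC25 and 75.0, 69.4 and 70.7 CPM in UNT (log2 0.50, SE 0.11, edgeR adjusted p = 0.00377, and 0.0288 in the strand-restricted fit). TWIST1 was the other. SOX10 was at 0.40 and FOXD3 at -0.11, and neither passed. DLX2, a factor of facial mesenchyme and ventral forebrain chosen after its values were seen, rose by 0.52 and kept its call in all 6 leave-one-out fits. Of 17 neuronal genes only NHLH1 was called (log2 0.74), and it lost the call without FPM_IC25 replicate 2 or 3 or UNT replicate 2 or 3 (up to 0.121). No gene of the amnion and trophoblast list (19 measured, median 0.19), the simple epithelium list (20) or the lateral plate and cardiac list (12) was called.

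Of 16 measured members of the osteoblast list 1 fell and none rose, with a median of -0.03, beside 7.36% called over all genes. ALPL, the alkaline phosphatase that frees phosphate for mineral, had 64.0, 73.8 and 67.1 CPM at FPM_IC25 and 97.0, 85.0 and 83.0 CPM in UNT. The groups did not overlap (log2 -0.37, SE 0.09, edgeR adjusted p = 0.00727), but in the strand-restricted fit the adjusted p was 0.112. RUNX2, the factor that commits cells to bone, averaged 7.14 ± 0.774 CPM at FPM_IC25 and 5.40 ± 0.552 CPM in UNT (log2 0.40, SE 0.20, adjusted p = 0.220). COL1A1, the main bone collagen, averaged 284 ± 11.95 CPM at FPM_IC25 and 231 ± 21.8 CPM in UNT (0.30, SE 0.16, adjusted p = 0.275). SPP1, osteopontin, averaged 277 ± 13.5 CPM at FPM_IC25 and 374 ± 65.8 CPM in UNT (-0.43, SE 0.17, adjusted p = 0.122). The groups did not overlap in RUNX2, COL1A1 or SPP1 either, although none of them passed. CYP24A1, the enzyme that vitamin D induces, averaged 4.06 CPM at FPM_IC25 and 3.29 CPM in UNT and did not pass (adjusted p = 0.264). None of the cartilage list (11 measured) was called.

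**Figure D3:**
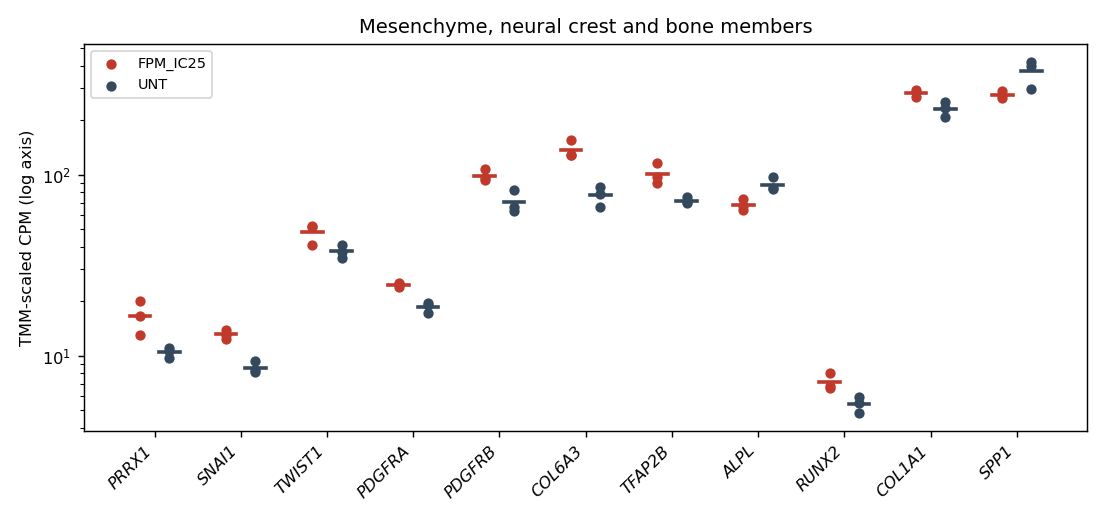
TMM-scaled CPM on a log axis for 11 genes of mesenchyme, neural crest and bone, with FPM_IC25 in red left of UNT in dark blue, points for libraries and bars for means of 3. PRRX1, SNAI1, COL6A3 and TFAP2B lie higher at FPM_IC25 with no overlap, and ALPL lies lower with no overlap. RUNX2, COL1A1 and SPP1 do not overlap either, but did not pass the test.

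Calls in the signalling lists were mostly lower, as were those over all genes (4.51% lower and 2.84% higher). Among genes with no opposite-strand exon overlap the shares were 4.99% lower and 0.907% higher. SFRP2, a secreted Wnt inhibitor, had 311, 201 and 331 CPM at FPM_IC25 and 476, 432 and 538 CPM in UNT (log2 -0.78, SE 0.17, edgeR adjusted p = 0.00320, and 0.0530 in the strand-restricted fit). The Wnt receptor FZD7 fell by 0.33, and FZD5 by 0.55 with its call lost without FPM_IC25 replicate 2 (0.0520); in all, 3 of 34 Wnt genes fell and none rose. AXIN2 (0.14) and LEF1 (0.13), which Wnt signals induce, were near 0. In the BMP and TGF-beta list 3 of 32 fell, among them GREM1, a BMP antagonist (-0.43, SE 0.08), and TGFB1 alone rose. The other falls were FST (-0.34) and ID4 (-0.33). Each lost its call in 5 of 6 leave-one-out fits and with GC correction. Of 22 FGF and ERK genes 4 fell, with ETV1 at -0.54 and FGF13 at -0.41. The call of ETV1 was lost without FPM_IC25 replicate 2 (0.0575), those of ETV1 and FGF13 with GC correction, and those of the other two in 5 of 6 leave-one-out fits.

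Of 17 retinoid genes 2 fell, beside 4.51% over all genes, and none rose. CYP26A1, which degrades retinoic acid and is induced by it, had 7.82, 7.29 and 9.43 CPM at FPM_IC25 and 13.7, 13.5 and 11.95 CPM in UNT (log2 -0.65, SE 0.12, edgeR adjusted p = 0.000898, and 0.0309 in the strand-restricted fit). ALDH1A1, which makes retinoic acid in the dorsal retina, had 21.6, 6.50 and 21.4 CPM at FPM_IC25 and 29.6, 31.9 and 41.3 CPM in UNT. It was lowest in the same FPM_IC25 replicate 2 as the eye field genes, and its call (log2 -1.06) was lost without that library or UNT replicate 2 or 3 (up to 0.145). DLK1, an imprinted inhibitor of Notch and adipogenesis, had 43.1, 30.9 and 42.5 CPM at FPM_IC25 and 79.3, 69.4 and 65.3 CPM in UNT (log2 -0.88, SE 0.14, edgeR adjusted p = 0.000265, and 0.0133 in the strand-restricted fit). H19, an imprinted RNA, rose by 0.51; these were the calls among 12 imprinted genes. GJA1, the gap junction protein connexin 43, NELL2, a secreted neuronal protein, and CLGN, a testis chaperone, were chosen from the strand-restricted calls after their values were seen. GJA1 averaged 753 ± 14.6 CPM at FPM_IC25 and 1076 ± 41.0 CPM in UNT, NELL2 fell by 0.73 and CLGN by 1.02.

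The remaining genes of the fold-change ranking that kept their calls in all 6 leave-one-out fits were of several kinds. CPLX4, a complexin of retinal synapses, had 2.68, 0.696 and 2.34 CPM at FPM_IC25 and 5.82, 6.34 and 8.72 CPM in UNT (log2 -1.89, SE 0.38, edgeR adjusted p = 0.00177). LHX9, a LIM homeodomain factor, fell by 1.14, SMKR1 by 1.21 and ANKRD18B by 1.12. ERVV-2, an endogenous retroviral envelope gene of placenta, had 3.70, 4.50 and 4.03 CPM at FPM_IC25 and 2.29, 1.64 and 1.95 CPM in UNT (log2 1.06, SE 0.24, edgeR adjusted p = 0.00487). Its closely related neighbour ERVV-1 was at 0.90 and lost the call without any 1 of 5 libraries (up to 0.183); reads of such copies can be split by the counting. GPR78, an orphan receptor, rose by 0.72. HERC3, a ubiquitin ligase, had 40.7, 28.0 and 30.1 CPM at FPM_IC25 and 8.26, 7.81 and 5.49 CPM in UNT (log2 2.17, SE 0.19, edgeR adjusted p = 2.62e-07). HERC3 spans NAP1L5, which lies on its other strand and was at -0.29 on the log2 scale (SE 0.21), not called. The strand-restricted fit keeps HERC3, since no exons of the opposite strand overlap its own. HERC3 averaged 38.2 CPM at FPM_IC50 and 7.86 CPM at SRM_IC25. The part of opposite-strand reads in the HERC3 value was not tested.

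None of the measured genes of the AHR and antioxidant lists rose. CYP1A1, the main AHR target, had 7.51, 7.70 and 7.93 CPM at FPM_IC25 and 6.07, 7.28 and 6.22 CPM in UNT (log2 0.25, SE 0.19, edgeR adjusted p = 0.441). CYP1B1, a second target, was at -0.27 (adjusted p = 0.245). Of 9 measured genes of the AHR list none rose and, beside 4.51% over all genes, 2 fell. These were AHR itself (-0.34) and NFE2L2 (-0.34), a pair of transcription factors that sense foreign and reactive compounds. AHR lost its call in each of the 6 leave-one-out fits (up to 0.172), and NFE2L2 without FPM_IC25 replicate 1 or 3 or UNT replicate 2 or 3 (up to 0.212). None of 21 antioxidant genes that NFE2L2 controls was called, and HMOX1, heme oxygenase, averaged 28.5 ± 3.79 CPM at FPM_IC25 and 27.3 ± 3.56 CPM in UNT (log2 0.07, SE 0.14). The metallothionein list (8 measured) had no call.

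The CYP1A1 promoter is shown because AHR and its partner ARNT bind the core GCGTG, here in capitals. It is RefSeq sequence of GRCh38.p14, minus strand, chr15:74725479-74725778.
CYP1A1: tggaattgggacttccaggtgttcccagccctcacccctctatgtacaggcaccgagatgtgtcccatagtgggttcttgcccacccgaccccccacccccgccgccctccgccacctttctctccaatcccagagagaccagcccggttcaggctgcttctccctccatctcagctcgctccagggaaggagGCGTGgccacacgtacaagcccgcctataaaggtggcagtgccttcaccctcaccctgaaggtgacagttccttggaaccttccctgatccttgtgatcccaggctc
The window holds 1 match on either strand (GCGTG or CACGC). The core is common: it is in 36.3% of all 27305 promoters, 51.0% of the 11104 matched genes of this set, 42.6% of 61 matched higher genes and 52.7% of 330 matched lower genes with no opposite-strand exon overlap. The share says nothing about AHR binding.

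Chaperone genes were modestly lower, 5 of 17 in the heat shock list beside 4.51% over all genes, with a median of -0.20. HSP90AA1, a cytosolic chaperone, had 1399, 1312 and 1315 CPM at FPM_IC25 and 1583, 2017 and 1982 CPM in UNT (log2 -0.47, SE 0.12, edgeR adjusted p = 0.0113). HSPD1, a mitochondrial chaperone, fell by 0.43 and HSP90AB1 by 0.37. All 3 calls were lost without UNT replicate 2, where the list had 0 calls. HSP90AA1 and HSP90AB1 also lost theirs without UNT replicate 3, and HSP90AB1 without FPM_IC25 replicate 2 (adjusted p up to 0.0856 over these fits). The stress-inducible HSPA1A (-0.20) and DNAJB1 (0.03) were not called. In the unfolded protein list 3 of 20 fell, HSP90B1, ASNS and PSAT1, each by 0.35 or less on the log2 scale, and each lost its call without UNT replicate 2 (up to 0.196). Ribosomal protein genes had no call. All 34 fold changes were below 0, with a median of -0.26, against a median of -0.04 over all 14558 genes. Their summed level was 41053 to 50542 CPM at FPM_IC25 and 44824 to 64638 CPM in UNT, so the groups overlapped. Of 19 inflammation and interferon genes CCL2, a monocyte chemokine, fell by 0.93 (SE 0.22) and BST2, an interferon-induced membrane protein, by 0.64. The call of BST2 was lost without FPM_IC25 replicate 2 or any 1 UNT library (up to 0.200). TNFAIP3, a brake on NF-kappaB, rose by 0.37, lost without FPM_IC25 replicate 2 or UNT replicate 2 or 3 (up to 0.105).

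The lists of growth and metabolism had small counts, to be read beside the 7.36% called over all genes. INSIG1, a sensor of sterols, fell by 0.38 (SE 0.09) and kept its call in all 6 leave-one-out fits, as did EGLN3, an oxygen sensor (-0.59, SE 0.14), the only call of 27 glycolysis and hypoxia genes. Of 30 cholesterol and fatty acid genes SC5D was the other that fell. CCNB2, TOP2A and CDKN1B fell among 29 cell cycle genes, each by 0.33 or less, PMAIP1 (-0.48) among 20 p53 and apoptosis genes, HES1 (-0.65) among 17 Notch genes and PAX1 (-1.02) among 12 paraxial mesoderm genes. ATG5 fell by 0.36 beside the rise of ATG7 among 25 lysosome and autophagy genes. These 7 falls, with that of SC5D, were each lost without 1 or more of the 6 libraries (adjusted p up to 0.214). The lists of nuclear respiratory chain genes (28 measured), endothelium and blood (9), replication-dependent histones (7), Nodal and primitive streak (5), endoderm (4), vitamin D (4) and HOX genes (4) had no call.

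Mitochondrial transcripts split by strand. Of 16 measured genes on the plus strand of the mitochondrial genome 7 fell, beside 4.51% over all genes, and none rose, with a median of -0.44. Of the 7, only MT-RNR2 (edgeR adjusted p = 0.0192) and MT-ATP8 (0.0492) were called in the strand-restricted fit. MT-ND2, MT-RNR1 and MT-CO3 kept the call in 3, 2 and 1 of the 6 leave-one-out fits. MT-CO2, a subunit of cytochrome oxidase, had 2654, 3763 and 3495 CPM at FPM_IC25 and 4377, 5382 and 5327 CPM in UNT (log2 -0.61, SE 0.14, edgeR adjusted p = 0.00605). MT-ATP6 fell by 0.66, MT-ATP8 by 0.75 and the ribosomal RNA MT-RNR2 by 0.62. FPM_IC25 replicate 1 was lowest in most of them: the 13 protein genes summed to 24480 CPM in that library, 36290 and 31468 CPM in the other FPM_IC25 libraries, and 38043 to 40601 CPM in UNT. On the minus strand, MT-ND6, a subunit of complex I, had 316, 343 and 322 CPM at FPM_IC25 and 99.7, 99.9 and 131 CPM in UNT (log2 1.57, SE 0.13, edgeR adjusted p = 8.88e-08). MT-TP, a transfer RNA of the same strand, rose by 1.63, while MT-TQ, also there, was at -0.63 and did not pass. The part of opposite-strand reads in the MT-ND6 value was not tested.

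**Figure D4:**
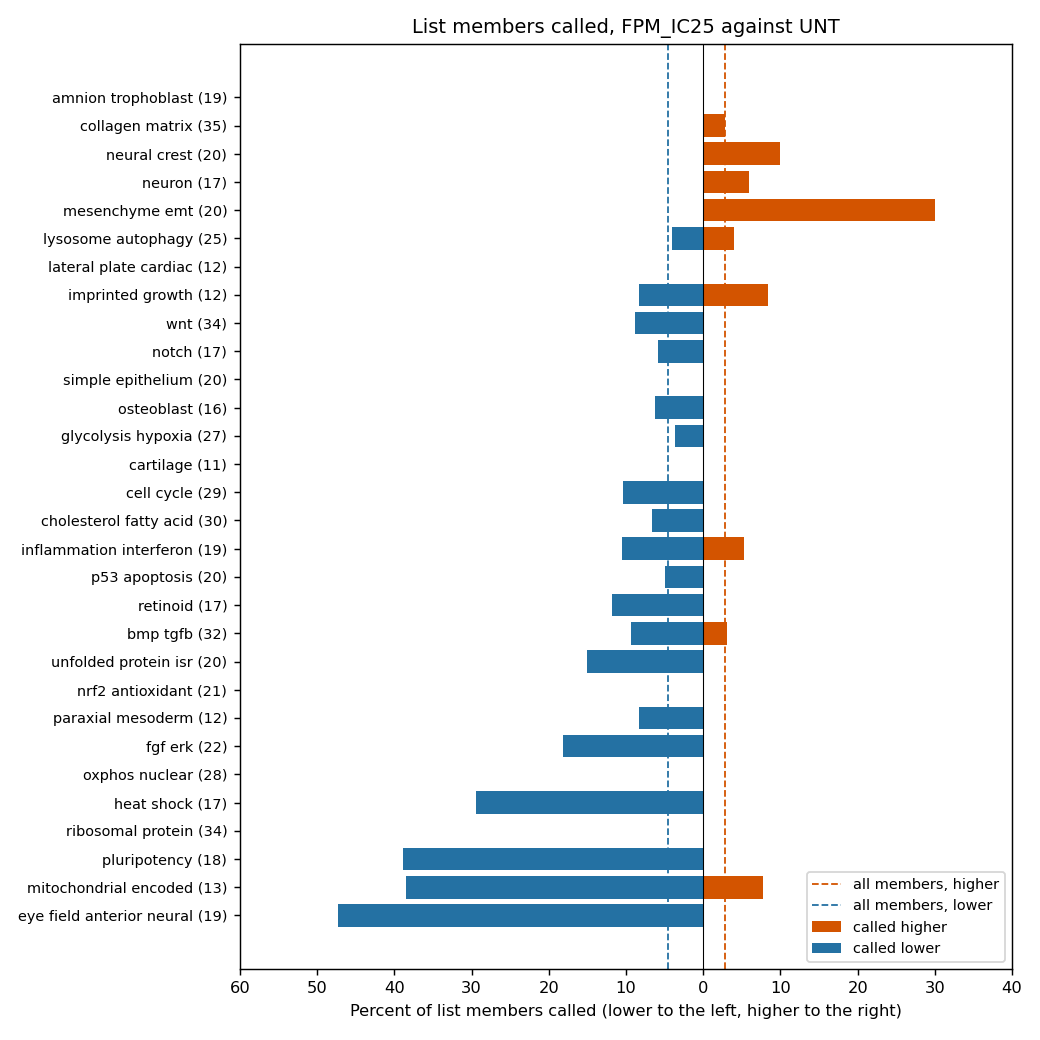
Percent of each list's measured genes called lower (blue, to the left) and higher (orange, to the right) at FPM_IC25 against UNT, for lists of at least 10 genes with the number measured in parentheses, ordered by median log2 fold change. Dashed lines mark 2.84% higher and 4.51% lower over all 14558 genes; the eye field list reaches furthest left and the mesenchyme list furthest right.

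The higher FPM dose, 2258 times the lower one, gave a direct test of whether these values moved with dose. Only 2 genes (0.0137%) were called between FPM_IC25 and FPM_IC50, both higher at FPM_IC25. Of the 14558 genes 566 had an unadjusted p under 0.05, fewer than that threshold would give if no gene differed. DESeq2 called 35. PRRX1 had 12.97, 20.2 and 16.6 CPM at FPM_IC25 and 7.79, 8.72 and 6.07 CPM at FPM_IC50 (log2 1.14, SE 0.16, edgeR adjusted p = 0.0411). DLX1, a homeodomain factor of ventral forebrain and face, named after its values were seen, had 9.36, 16.3 and 9.34 CPM at FPM_IC25 and 5.16, 4.56 and 3.44 CPM at FPM_IC50 (log2 1.41, SE 0.21, edgeR adjusted p = 0.0411). Both calls were lost without any 1 FPM_IC50 library, where no gene was called, and 1 gene was called without FPM_IC25 replicate 3. In UNT, PRRX1 lay between the doses at 9.75, 10.99 and 10.6 CPM.

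The eye field genes SIX3 and RAX averaged 24.5 and 40.1 CPM at FPM_IC50, against 26.2 and 40.8 CPM in UNT. SIX3 had 28.2, 21.8 and 23.4 CPM at FPM_IC50, all above its FPM_IC25 values, and the log2 difference of FPM_IC25 from FPM_IC50 was -1.13 (SE 0.24, edgeR adjusted p = 0.185). RAX had 55.4, 30.2 and 34.7 CPM at FPM_IC50 (log2 difference -1.45, SE 0.35, edgeR adjusted p = 0.358). MITF had 8.57, 8.57 and 8.42 CPM at FPM_IC50 (-0.58, SE 0.14, edgeR adjusted p = 0.409). None of these differences passed. SIX3, RAX and MITF were named for their calls against UNT, and the same FPM_IC25 libraries stand in both comparisons. LIN28A (-0.22, SE 0.10), SOX2 (-0.17, SE 0.11), HERC3 (-0.22, SE 0.17) and MT-ND6 (-0.23, SE 0.12) differed less between the doses.

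**Figure D5:**
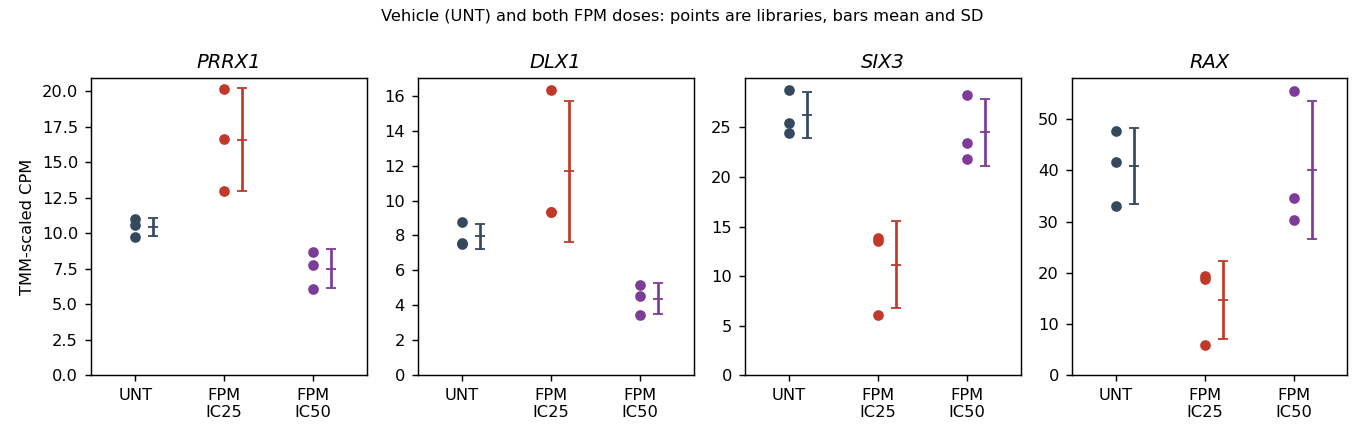
TMM-scaled CPM of PRRX1, DLX1, SIX3 and RAX in UNT, at FPM_IC25 and at FPM_IC50, in order of dose, with points for libraries and bars for mean and SD of 3. PRRX1 and DLX1 are highest at FPM_IC25 and lowest at FPM_IC50, and SIX3 and RAX are lowest at FPM_IC25.

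Against SRM_IC25, the other particle at its own IC25, FPM_IC25 had 317 genes higher (2.18%) and 106 lower (0.728%). The concentrations differ, so the values stand side by side. Of these 423 genes, 301 have an opposite-strand exon overlap, and 242 were also called against UNT. SRM_IC25 lacked the raised antisense share of FPM_IC25, and the part of that difference in these calls was not tested. A fit on the 3352 genes lacking any opposite-strand neighbour within 5 kb called 0, while 1903 of all genes in the set had an unadjusted p under 0.05 in the whole-table fit and DESeq2 called 529. The set's threshold left no gap at its edge: CDA, just inside, had a lowest UNT value of 1.02 CPM by library total, and CD7, just outside, 0.996 CPM.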

How the data were processed

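HISAT2 2.2.1, SAMtools 1.10, featureCounts from Subread (2.0.15), FastQC 0.11.7, DESeq2 and the build GRCh38 are named in the submitters' processing notes as what the authors used. How strand was treated in counting, and which annotation release was used, is stated in no source used here. The authors deposited raw read counts per gene and, in another file, FPKM made from those counts. 1 column, gene length, belongs to no sample.

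Counts were tested in edgeR 4.0.16 (R 4.3.3) with TMM scaling, filterByExpr and robust quasi-likelihood fits of 5 group means to all 15 libraries; 19012 genes were tested and p-values adjusted by Benjamini-Hochberg over all of them. All 14558 genes of the set passed that filter. CPM values are TMM-scaled, except those for the threshold genes, which use library totals. Adjusted p-values come from this test unless another is named. Opposite-strand classes, coordinates and GC content came from GENCODE 29, and promoters from RefSeq (11104 of 14557 symbols matched). A floor of 3 counts was 0.0515 to 0.321 CPM, and floors cover counting error only, since PCR reads are not independent molecules. Whether replicates came from separate cultures is not in the labels. The p-values thus reflect the spread among 3 libraries a group, possibly technical, estimated over all 5 groups. The group not used in a comparison was SRM_IC50, the standard reference material at 5.9 µg/mL. Replicate libraries differed beyond sampling noise (chi-square per gene of 5.28 to 34.6).

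Genes named were the 12 higher and 12 lower with the largest fold among called protein-coding genes whose libraries do not overlap and with no opposite-strand exon overlap, the 6 each way with the largest CPM difference, up to 4 called genes per list, and a set of exposure and lineage markers irrespective of p; defining markers and other genes are named where stated, and 1 gene that the rule picked is not reported here. The members and the 39 lists were chosen with earlier results of these data known, and no list was tested as a set. Alternatives were DESeq2 1.42.0, its size factors in edgeR, no filter, the replicate number as a block, only 6 libraries, limma-trend (limma 3.58.1) on log2(FPKM + 1) and log2(FPKM + 0.1), a GC correction, other CPM minimums, fits restricted by opposite-strand class, and leaving out each replicate. The fits with scaling from genes without opposite-strand neighbours, without FPM_IC50 libraries, with GC correction and block together, and without opposite-strand exon overlap were chosen after seeing the data.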

Additional observations from a re-analysis of the deposited data

Results flagged for a closer look

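Counts in genes outside the 14558 took 1.22% ± 0.190 of each library at FPM_IC25 and 0.333% ± 0.0191 in UNT (SD, n = 3). These genes are not part of the comparison. They are those under 1 CPM in at least 1 UNT library, so their share in UNT was held low by the choice. No test of this difference is therefore given.

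For 7 named genes with no opposite-strand exon overlap the difference between FPM_IC25 and SRM_IC25 was itself past the threshold in edgeR. Named genes with such an overlap passed too, among them BEST1, SNX22, ATG10, SH3D19 and ATG7. Both comparisons use the same FPM_IC25 libraries, so their directions are not independent. The log2 difference of FPM_IC25 from SRM_IC25 was 2.10 for MT-ND6, 2.06 for HERC3 and 0.62 for PRRX1. It was -0.79 for DLK1, -0.57 for CYP26A1, -0.56 for SFRP2 and -0.39 for ALPL. In the edgeR fit limited to the 3352 genes that lie over 5 kb from any gene of the other strand, which holds PRRX1, DLK1, CYP26A1, SFRP2 and ALPL, none of them passed (adjusted p 0.0915 to 0.380). That fit called 0 genes against SRM_IC25, with 402 at an unadjusted p under 0.05. The doses of the particles differ, so these are values of the cultures as exposed.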

How the results depend on the processing

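Of 1071 genes called against UNT, the replicate block gave 2354, the GC correction 672, both together 1700, the fit without opposite-strand exon overlap 69 and the fit without opposite-strand genes within 5 kb 31; leaving out 1 replicate gave 476 to 1403. For the 414 higher genes these were 946 (block), 844 (GC and block), 26 and 14 (restricted fits), 235 with a minimum of 5 CPM, and 271 to 548 without 1 replicate. For the 657 lower genes they were 1408 (block), 282 (GC), 419 with only 6 libraries, 280 and 285 on log2(FPKM + 1) and log2(FPKM + 0.1), 379 with the other scaling, 43 and 17 (restricted fits), and 205 to 855 without 1 replicate. Against FPM_IC50 the 2 calls became 35 in DESeq2, 96 with no filter, 34 under the block, 7 without opposite-strand genes within 5 kb, 0 and 0 on the FPKM scales, 4 with GC correction, and 0 to 2 without 1 replicate. Against SRM_IC25 the 423 became 837 with no filter, 1319 under the block, 0 without opposite-strand genes within 5 kb, 270 with a minimum of 5 CPM, and 257 to 473 without 1 replicate. The 73 list members called became 114 with no filter, 127 under the block, 119 with GC and block, 13 and 9 in the restricted fits, and 39 to 79 without 1 replicate. The 84 named genes called became 17 and 12 in the restricted fits, where 46 and 19 named genes were fitted and lost the call, and 44 to 69 without 1 replicate. The share of counts in antisense genes at FPM_IC25, 1.07%, was 0.974 to 1.14% without 1 replicate. The cause was not tested. HMOX1, at 0.07, turned to -0.0075 with GC correction, -0.019 with GC and block, and -0.043 without FPM_IC25 replicate 3 (-0.043 to 0.19 over the fits without 1 replicate), none past the threshold; no other named gene changed direction under these settings. Same-numbered libraries of FPM_IC25 and UNT correlated at -0.059, 0.093 and 0.442 in their deviations from the group means. Not every library correlated best with its own number, so these values do not show that the replicate numbers pair the samples. The check covers only these 2 groups. The replicate block, fitted over all 15 libraries, raised the calls against UNT from 1071 to 2354. Whether replicate numbers share an effect was not tested further. With 9.34 M counts, FPM_IC25 replicate 1 limits what can be seen of genes near 1 CPM.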
